A study of Drosophila melanogaster with 6 samples.

Results

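UDP-glycosyltransferases (Ugt) were taken as every gene whose symbol in the deposited count tables begins with Ugt and a digit, which gave 35 of 17116 genes. Each library pooled 30 midguts of 8-day-old females of w1118, a laboratory stock of Drosophila melanogaster with white eyes. The females were either virgin (3 libraries) or mated and taken 3 days later (3 libraries), and mRNA was sequenced with its strand. The study asked how the female intestine changes with reproduction.

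Ugt enzymes sit in the membrane of the endoplasmic reticulum and join a sugar, taken from a UDP-sugar donor, to small fat-soluble molecules. The product dissolves more easily in water and can be carried out of the cell, which makes this step a part of detoxification beside oxidation by cytochrome P450 enzymes. In insects the donor is usually UDP-glucose, and the substrates include plant compounds, insecticides, odorants and hormones.

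In mated midguts, 6 of the 30 Ugt genes that could be tested were lower and 0 were higher, in edgeR's quasi-likelihood test at an adjusted p below 0.05; 1 was higher at an unadjusted p under 0.05, and DESeq2 and limma-voom called 0 higher. Among all 8607 genes tested, 4.1% passed by the same rule, 1.63% as lower and 2.47% as higher. All 6 lie in 1 stretch of 51.3 kb on chromosome arm 3R, which holds 10 Ugt genes. The falls ranged from 1.52-fold for Ugt35A1 to 2.84-fold for Ugt303A1. The other 24 Ugt genes tested did not pass, and 5 were left out by the filter on low counts.

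Total gene counts per library lay between 15902696 and 29021297. Levels are given as CPM, counts scaled to 1000000 per library after TMM, a method that sets the bulk of genes level between libraries. Ovary RNA stood out in virgin 2, with osk at 22.7 CPM against at most 0.127 elsewhere, and mated 1 held 33.5 CPM of the fat body gene to, against at most 4.37 elsewhere. All calls were therefore also made without both libraries. The 7 enterocyte markers summed to 41411 to 49524 CPM in virgin midguts and to 46008 to 59884 CPM in mated midguts, which fits the labelled tissue, and 0 of them passed (0 with an unadjusted p under 0.05; 0 by DESeq2; 0 by limma-voom).

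Visceral muscle markers were higher in mated midguts. Of 10 tested 8 rose, and their sum was 1701 to 2101 CPM for virgin and 2856 to 4166 CPM for mated midguts. The count was 2 to 7 with a library left out and 2 without virgin 2 and mated 1 together (Act57B and Act87E, both muscle actins). Of 10 tested Malpighian tubule markers 1 rose, Uro. It was at 1.17 to 3.62 CPM in virgin and 13.6 to 44.8 CPM in mated midguts. It passed in 2 of 6 fits with a library left out. Without virgin 2 and mated 1 together 2 tubule markers rose, Uro and salt (edgeR adjusted p of 0.0121 and 0.00798). With all libraries salt did not pass (log2 fold change 1.11 ± 0.70 SE, adjusted p = 0.504). The 11 tubule markers found summed to 56.5 to 103 CPM and 82.4 to 158 CPM. The fat body markers summed to 80.0 to 301 CPM and 102 to 290 CPM, with Fbp1 at 0 throughout, and 0 passed (1 with an unadjusted p under 0.05; 0 by DESeq2; 0 by limma-voom). The part of these tissues in the Ugt changes was not tested. In pooled tissue, fewer cells of a type and less RNA per cell cannot be told apart.

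Together the 35 genes were a small part of the midgut transcriptome. Their counts made up 0.214%, 0.222% and 0.228% of gene counts in virgin 1, 2 and 3 and 0.122%, 0.150% and 0.121% in mated 1, 2 and 3. Every mated library lay below every virgin library. On the TMM scale the summed level was 2029 ± 29.7 CPM for virgin and 1426 ± 121 CPM for mated midguts (SD, n = 3 each). No test is given for the sums, since the genes were chosen with results of these data known.

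The 10 genes of the 3R stretch supplied 30.6%, 36.4% and 30.1% of all Ugt counts in virgin 1, 2 and 3, and 20.9%, 23.4% and 24.8% in mated 1, 2 and 3. This share does not depend on how libraries are scaled, and it was lower in all 3 mated libraries. In CPM, the stretch went from 656 ± 64.0 to 328 ± 33.6 and the 25 other members from 1373 ± 87.3 to 1098 ± 103 (SD, n = 3 each).

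**Figure D1:**
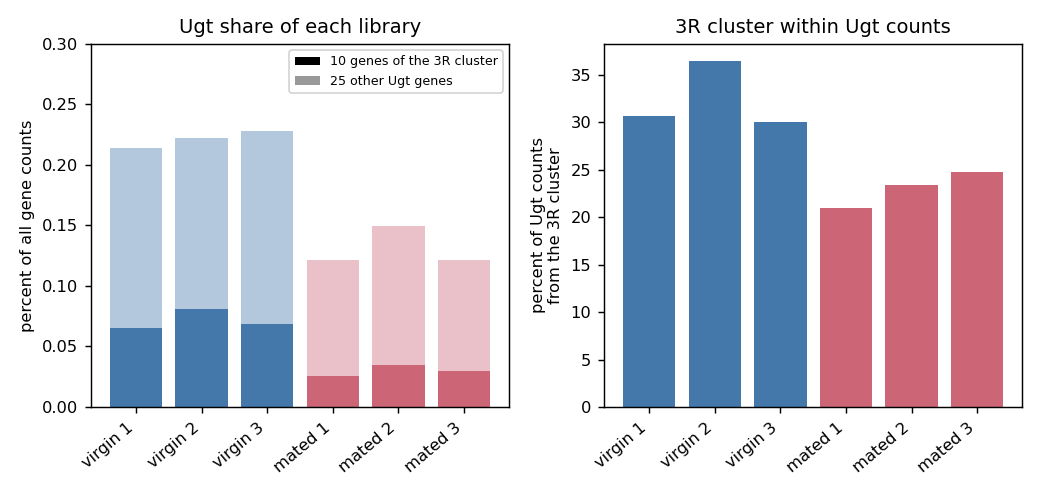
Left, percent of all gene counts from Ugt genes in each of the 6 libraries, split into the 10 genes of the 3R stretch (dark) and the 25 other members (light); right, percent of Ugt counts from the 3R stretch. The mated libraries sit at 0.121% to 0.150% of gene counts against 0.214% to 0.228% in virgin libraries, and the 3R share is 20.9% to 24.8% against 30.1% to 36.4%.

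The stretch runs from 11126597 to 11177910 on chromosome arm 3R in dm6 coordinates, at the place that older gene names call 86D. From left to right it holds Ugt35C1, Ugt302K1, Ugt302E1, Ugt302C1, Ugt35E1, Ugt35E2, Ugt35B1, Ugt35A1, Ugt304A1 and Ugt303A1, so that 4 families stand side by side. Runs of related genes like this usually arise by tandem duplication, and reads that match several places were kept out of the deposited gene counts, so the split of reads between close copies is uncertain. Such reads were 4.31% to 4.98% of virgin and 5.67% to 7.67% of mated libraries, without overlap, and their part in the changes of these genes was not tested. The grouping by position was made after the values were seen and was given no test. Of its 9 tested members 6 fell, with a median log2 fold change of -0.98. At the other sites 0 of 21 tested members passed (6 lower and 1 higher with an unadjusted p under 0.05; 1 by DESeq2; 0 by limma-voom), with a median of -0.11, against -0.05 for all genes. With library size alone as the scale these medians were -1.24, -0.35 and -0.30.

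Ugt303A1 lies at the right end of the stretch (3R, 11175529 to 11177910, plus strand). Its level was 162, 188 and 136 CPM in virgin 1, 2 and 3 and 45.0, 64.9 and 61.2 CPM in mated 1, 2 and 3. The gap between the groups was wider than the range of either one. The fall was 2.84-fold (log2 fold change -1.51 ± 0.17 SE, adjusted p = 0.00075), and it held with each of the 6 libraries left out in turn.

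Its neighbour Ugt304A1 (3R, 11173441 to 11175408, minus strand) starts close to it and is read in the other direction. It was at 71.9, 67.8 and 66.7 CPM in virgin 1, 2 and 3 and at 22.1, 35.7 and 27.8 CPM in mated 1, 2 and 3. The virgin libraries were close to each other, and mated 1 was the lowest. The fall was 2.41-fold (log2 fold change -1.27 ± 0.17 SE, adjusted p = 0.00168) and held with each library left out.

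Ugt302C1 and Ugt302E1 lie next to each other on the plus strand in the middle of the stretch. Ugt302C1 (3R, 11157098 to 11159744) was at 136, 192 and 165 CPM in virgin 1, 2 and 3 and at 89.3, 88.3 and 72.9 CPM in mated 1, 2 and 3. The groups stood well apart. The fall was 1.97-fold (log2 fold change -0.98 ± 0.15 SE, adjusted p = 0.00463) and held with each library left out.

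Ugt302E1 (3R, 11154626 to 11156513) was at 48.7, 48.0 and 44.6 CPM in virgin 1, 2 and 3 and at 22.1, 35.2 and 30.0 CPM in mated 1, 2 and 3. The groups did not overlap, and the mated libraries were spread more widely. It fell 1.62-fold and passed narrowly (log2 fold change -0.69 ± 0.17 SE, adjusted p = 0.047). It kept its call without mated 2 (adjusted p = 0.0458) and lost it without virgin 1, virgin 2, virgin 3, mated 1 or mated 3, with adjusted p from 0.101 to 0.143. RLE scaling, upper-quartile scaling and the unstranded column also ended the call (adjusted p of 0.0585, 0.0507 and 0.0523).

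Ugt35C1, formerly Ugt86Dd, is known for its part in the resistance of fly larvae to nicotine. It lies at the left end of the stretch, apart from the rest (3R, 11126597 to 11128328, minus strand). Its level was 39.9, 46.3 and 35.6 CPM in virgin 1, 2 and 3 and 22.1, 14.4 and 10.3 CPM in mated 1, 2 and 3. Mated 1 was the highest of its group here, whereas it was the lowest of its group for Ugt303A1, Ugt304A1, Ugt302E1 and Ugt35A1. Ugt35C1 fell 2.60-fold (log2 fold change -1.38 ± 0.25 SE, adjusted p = 0.013), and it was lost without virgin 1, virgin 2 or mated 2 (adjusted p of 0.0608, 0.052 and 0.0798).

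Ugt35A1 (3R, 11170817 to 11172664, minus strand) had the highest level of the stretch per length, 78.4 CPM per kb of exon as a mean over all libraries. It was at 167, 179 and 158 CPM in virgin 1, 2 and 3 and at 92.9, 121 and 119 CPM in mated 1, 2 and 3. The groups did not overlap. The fall of 1.52-fold (log2 fold change -0.60 ± 0.14 SE, adjusted p = 0.0335) was lost with any of the 6 libraries left out (adjusted p from 0.0772 to 0.113). Without virgin 2 and mated 1 together, Ugt303A1, Ugt304A1, Ugt302C1 and Ugt35C1 passed, and Ugt302E1 and Ugt35A1 did not (adjusted p of 0.211 and 0.165).

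The other 4 genes of the stretch had few reads. Ugt35B1, described from the antenna as an enzyme of olfaction, had 3.68 and 4.75 CPM in virgin 1 and 2, 0 in virgin 3, and 1.28 to 2.54 CPM in the mated libraries; its log2 fold change was -0.44 ± 1.19 SE, and it turned to 0.53 with limma-voom. Ugt35E1 was at 0.93 to 1.62 CPM and 0.45 to 0.78 CPM, which did not overlap, but it did not pass (log2 fold change -1.26 ± 0.72 SE, adjusted p = 0.418). Ugt302K1 stood at 0.17 to 0.75 CPM and 0.47 to 1.21 CPM. Ugt35E2 had 15 counts in virgin 2 and 0 in the other 5 libraries, where a count of 0 (read as at most 3 counts) allows up to 0.191 CPM; such limits cover counting error only. The members that passed in this stretch were thus its 6 with a mean of at least 5 CPM.

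**Figure D2:**
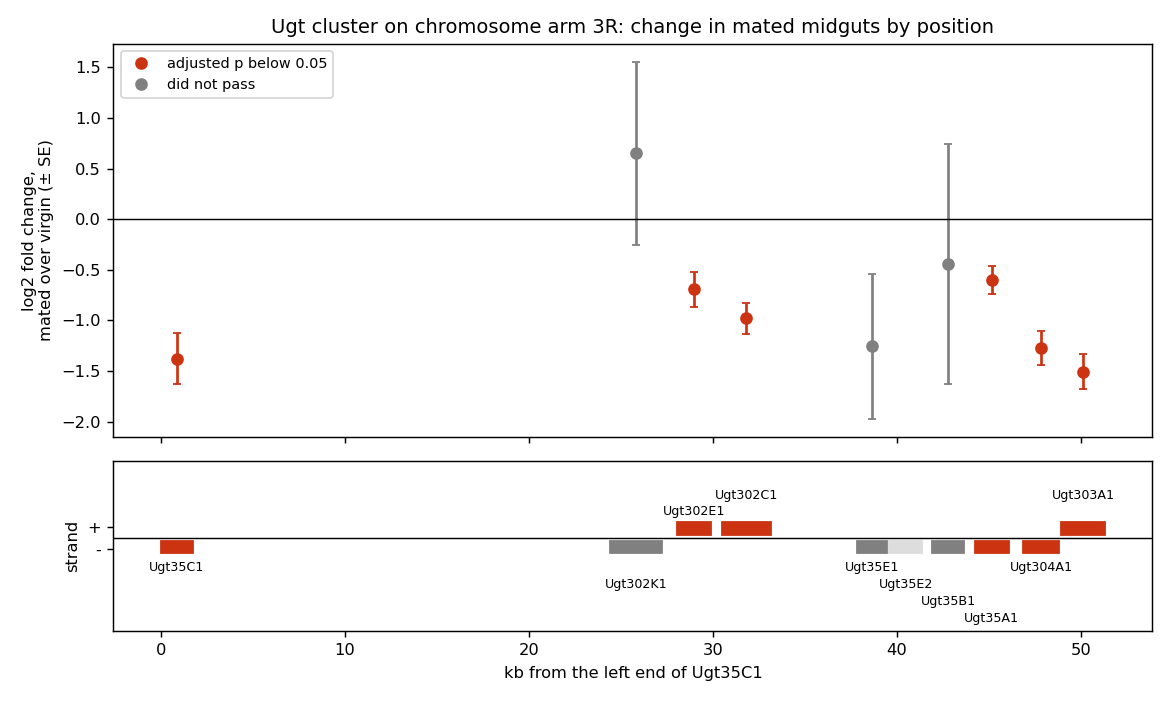
Top, log2 fold change of mated over virgin libraries with its standard error for the tested Ugt genes of the 3R stretch, by distance in kb from its left end; bottom, the genes to scale on each strand, with Ugt35E2, which was not tested, in light grey. The 6 red genes passed and range from -0.60 to -1.51, and the grey genes, which did not pass, are below 5 CPM and have the widest bars.

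Genes around the stretch that are no Ugt genes were also examined. Inside it, mAcon2 and CheA86a were listed at 0 and CG4757 was at up to 2.21 CPM, too low to be tested. Within 50 kb to the left, the only counted genes, lncRNA:CR44940, CG43449 and lncRNA:CR45579, were at 0 in every library and were not tested. Within 50 kb to the right 12 genes were tested. Of these, 1 rose and 0 fell in edgeR (3 lower with an unadjusted p under 0.05, 2 by DESeq2, 0 by limma-voom). The gene that rose was cu, known as the gene of the curled wing mutant, which was at 39.4, 41.2 and 43.7 CPM in virgin 1, 2 and 3 and at 62.7, 69.5 and 64.4 CPM in mated 1, 2 and 3 (log2 fold change 0.66 ± 0.12 SE, adjusted p = 0.0117). The nearest tested gene, CG18577, lies 18.2 kb away and ranged from 18.3 to 28.2 CPM and from 18.8 to 29.3 CPM, so its groups overlapped. Lower in every mated library, but not past the threshold, were Tctp and the ribosomal protein genes RpL3 and RpS25, named after their values were seen. Tctp was at 862 to 900 CPM and 609 to 697 CPM (log2 fold change -0.47 ± 0.13 SE, adjusted p = 0.0714). RpL3 and RpS25 had log2 fold changes of -0.51 ± 0.16 SE and -0.37 ± 0.14 SE (adjusted p of 0.121 and 0.188).

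The Ugt303 family is divided between different sites of 3R. Ugt303B3, Ugt303B1 and Ugt303B2 form a run of 5.96 kb on the minus strand far from Ugt303A1 (3R, 23532945 to 23538908), and 0 of the 3 passed. Ugt303B3 came nearest, at 135, 133 and 156 CPM in virgin 1, 2 and 3 and 95.8, 107 and 102 CPM in mated 1, 2 and 3. The groups did not overlap, but its log2 fold change of -0.48 ± 0.13 SE did not pass (adjusted p = 0.0604). DESeq2 and upper-quartile scaling did call it (adjusted p of 0.0186 and 0.0487). Ugt303B1 was at 37.3 to 57.6 CPM and 36.9 to 44.0 CPM, and Ugt303B2 at 4.69 to 8.19 CPM and 6.01 to 7.12 CPM, both with overlap.

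Within each library, Ugt303A1 had 1.20, 1.41 and 0.872 counts per count of Ugt303B3 in virgin 1, 2 and 3, and 0.470, 0.608 and 0.602 in mated 1, 2 and 3. The same ratio of Ugt304A1 to Ugt303B1 was 1.25, 1.82 and 1.79, then 0.600, 0.811 and 0.665. Both ratios are free of scaling between libraries and lay lower in every mated library. They were chosen after the values were seen and were not tested.

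The Ugt37 family, with 8 members, supplied 35.5% to 43.3% of Ugt counts per library, and 0 of its 7 tested members passed (3 lower with an unadjusted p under 0.05; 0 by DESeq2; 0 by limma-voom). Ugt37D1, once called Ugt36Bc, had the highest level per length of the 35 genes, 158 CPM per kb of exon as a mean over all libraries. It was at 339, 345 and 365 CPM in virgin 1, 2 and 3 and at 315, 274 and 216 CPM in mated 1, 2 and 3. The groups did not overlap, and the log2 fold change was -0.38 ± 0.15 SE (adjusted p = 0.222). Its neighbours on 2L, Ugt37C2 and Ugt37E1, were at 17.2 to 28.1 CPM and 1.46 to 9.03 CPM over all libraries.

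Ugt37A2 and Ugt37A3 form a pair on 3R (12739642 to 12743680). Ugt37A2 was at 273, 205 and 205 CPM in virgin 1, 2 and 3 and at 166, 180 and 123 CPM in mated 1, 2 and 3. Its groups did not overlap, and the log2 fold change was -0.54 ± 0.17 SE (adjusted p = 0.128). Ugt37A3 was at 97.2 to 120 CPM and 59.7 to 124 CPM, with its highest level in mated 2.

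Ugt37B1 was at 35.4, 39.9 and 44.0 CPM in virgin 1, 2 and 3 and at 35.1, 23.2 and 14.1 CPM in mated 1, 2 and 3. The highest mated library came close to the lowest virgin library. The log2 fold change was -0.72 ± 0.29 SE (adjusted p = 0.243), and the gene passed without mated 1 (adjusted p = 0.0365). Ugt37A1, named here after its values were seen, was at 17.9, 4.72 and 16.4 CPM in virgin 1, 2 and 3 and at 8.81, 6.04 and 7.12 CPM in mated 1, 2 and 3. Virgin 2, the library with ovary RNA, was the lowest of all 6, and without it the gene passed (log2 fold change -1.22 ± 0.22 SE, adjusted p = 0.0188), as it did without virgin 2 and mated 1 (adjusted p = 0.0278). Ugt37C1 had 0 counts in all 6 libraries.

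The Ugt36 family was low in the midgut, and 0 of its 3 tested members passed (1 higher with an unadjusted p under 0.05; 0 by DESeq2; 0 by limma-voom). Ugt36A1, also called Dot or Dorothy and known from blood cells and the pericardial cells beside the heart, was at 33.1, 30.6 and 26.7 CPM in virgin 1, 2 and 3 and at 51.2, 37.3 and 36.1 CPM in mated 1, 2 and 3. Every mated library was above every virgin library, the opposite order to the 3R genes that passed. The log2 fold change of 0.46 ± 0.17 SE did not pass (adjusted p = 0.184). Ugt36D1 was at 2.28 to 3.84 CPM over all libraries. Ugt36E1 had 0 to 5 counts in virgin and 10 to 16 counts in mated libraries (adjusted p = 0.292), and Ugt36F1 had at most 10 counts in a library and was not tested.

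The remaining families are mostly single genes spread over several chromosome arms. Ugt49B1 was second in level per length, at 124 CPM per kb of exon as a mean over all libraries. It was at 234, 210 and 262 CPM in virgin 1, 2 and 3 and at 197, 205 and 192 CPM in mated 1, 2 and 3. The groups did not overlap but came close, and the log2 fold change was -0.24 ± 0.13 SE (adjusted p = 0.374).

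Its neighbour Ugt49C1 was at 26.5, 21.1 and 31.3 CPM in virgin 1, 2 and 3 and at 16.3, 20.5 and 16.8 CPM in mated 1, 2 and 3. Virgin 2 and mated 2 were close to each other (log2 fold change -0.55 ± 0.19 SE, adjusted p = 0.148). Ugt301D1 was at 17.3, 26.2 and 34.2 CPM in virgin 1, 2 and 3 and at 11.4, 19.9 and 17.8 CPM in mated 1, 2 and 3, with overlap (log2 fold change -0.66 ± 0.27 SE, adjusted p = 0.247).

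Ugt305A1 averaged 65.0 ± 14.5 CPM in virgin and 65.1 ± 8.02 CPM in mated midguts (SD, n = 3 each). Its log2 fold change was 0.00 ± 0.17 SE. Ugt316A1 was at 21.1 ± 6.10 and 27.2 ± 3.74 CPM, with overlap. Ugt307A1, Ugt317A1 and Ugt50B3 were at up to 5.62, 2.74 and 0.55 CPM in any library, and the standard errors of their log2 fold changes were 0.42, 1.12 and 1.43. Ugt49B2 and Ugt35D1, like Ugt37C1, had 0 counts in all 6 libraries, which allows 0.0937 to 0.191 CPM depending on the library.

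**Figure D3:**
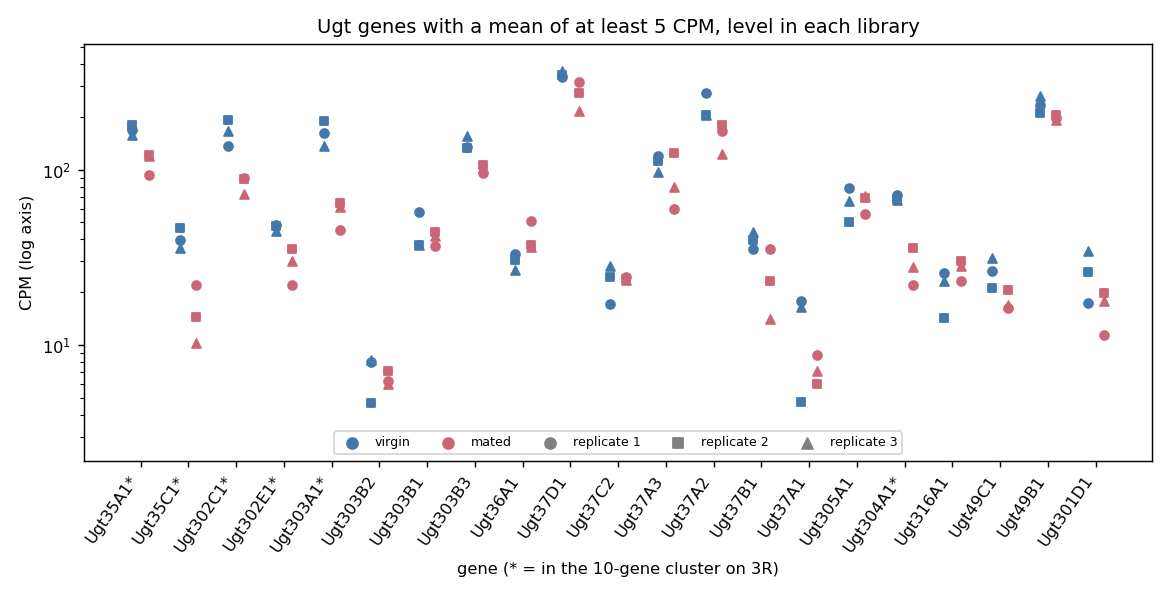
Level in CPM on a log axis of the 21 Ugt genes with a mean of at least 5 CPM, with 1 point per library, virgin in blue and mated in red, replicates by shape. The 6 genes with an asterisk belong to the 3R stretch, and their mated points all lie below their virgin points. The same holds for 6 genes outside it, Ugt37D1, Ugt37A2, Ugt37B1, Ugt303B3, Ugt49B1 and Ugt49C1. The points of others, such as Ugt305A1, Ugt37C2 and Ugt303B1, overlap.

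Over the whole family, log2 fold changes were negative in 20 of 30 tested genes, where 55% of all tested genes were negative. The median was -0.41, against -0.05 for all genes. At an unadjusted p under 0.05, 12 were lower and 1 higher, against 8.85% and 8.39% of all tested genes. The groups did not overlap in 15, of which 13 were lower, where 12.3% of all tested genes were lower and 11.6% higher without overlap.

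Scaling changed how many passed. On library size alone 12 were lower, where 8.42% of all tested genes were, and Ugt37D1, Ugt37A2, Ugt303B3, Ugt49B1, Ugt49C1 and Ugt37B1 were the 6 added. That scaling moved the median log2 fold change over all tested genes to -0.30, and the values near 0 of Ugt305A1, Ugt37C2 and Ugt317A1 turned to -0.24, -0.22 and -0.17. With RLE and upper-quartile scaling, 5 and 6 were lower, where 1.44% and 1.8% of all tested genes were.

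Other tests and columns gave 4 to 7 lower genes. DESeq2 called 7 and limma-voom 6, where they called 2.87% and 1.39% of all genes lower. With no low-count filter and with a filter of 1 CPM in 3 libraries, 6 were lower, beside 1.43% and 1.68% of all genes. The unstranded column gave 5, beside 1.49%, and the replicate number as a block gave 4, beside 1.12%.

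Fewer libraries or a stricter threshold gave 3 to 5. Without virgin 1, virgin 2 or virgin 3, 3, 4 and 4 were lower, beside 0.869%, 0.841% and 1.13% of all genes. Without mated 1, mated 2 or mated 3, 5, 4 and 4 were lower, beside 1.11%, 0.573% and 0.73%. Without virgin 2 and mated 1 together 5 were lower, 4 of them shared with the 6, beside 0.905%, and at a threshold of 0.01 there were 3, beside 0.523%. Ugt303A1, Ugt304A1 and Ugt302C1 were lower in every fit with a library left out.

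**Figure D4:**
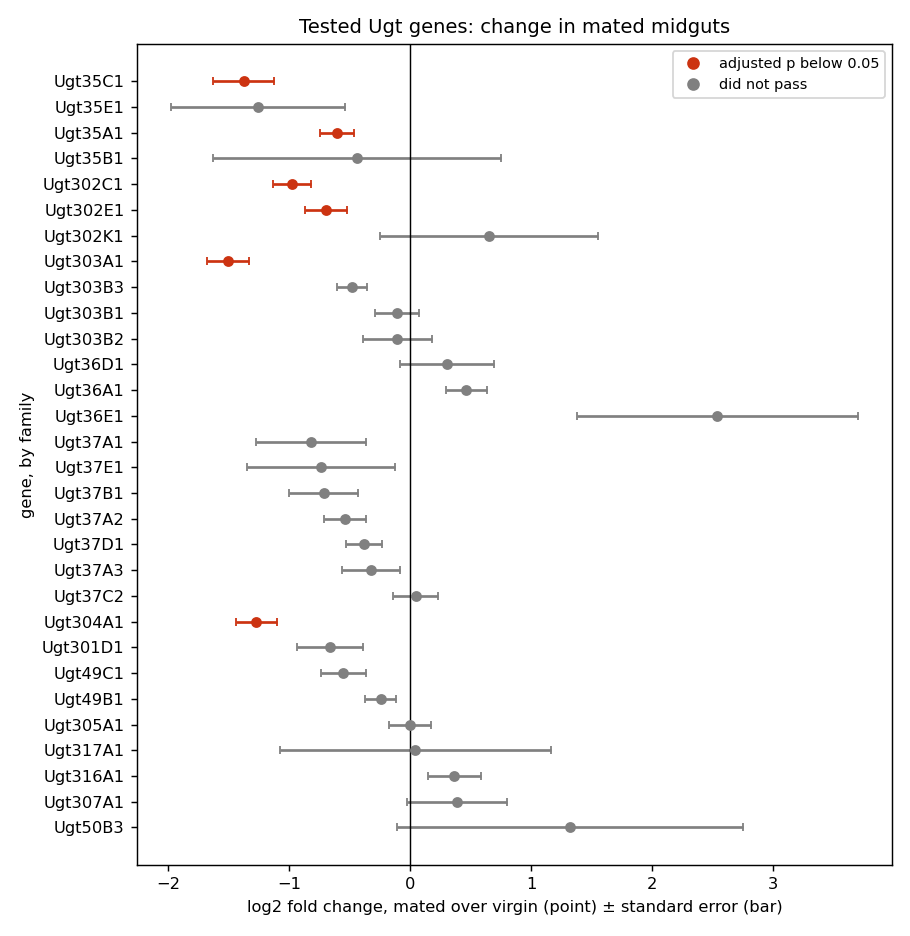
Log2 fold change of mated over virgin libraries (points) with standard errors (bars) for the 30 tested Ugt genes, ordered by family, with genes that passed in red. The 6 red genes lie between -1.51 and -0.60, and the widest bars belong to genes with few counts such as Ugt36E1 and Ugt50B3.

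Of related detoxification genes, 7 of 66 tested cytochrome P450 genes fell and 1 rose, and 2 of 31 tested glutathione S-transferase genes fell and 2 rose. The share of tested genes that fell was 20.0% for Ugt genes, 10.6% for P450 genes and 6.45% for glutathione S-transferases, beside 1.63% of all tested genes. In the same order, the share that rose was 0%, 1.52% and 6.45%, beside 2.47% of all tested genes. The differences between these shares were not tested.

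Of 14 tested genes that make UDP-sugars or their precursors, 0 passed in edgeR (4 with an unadjusted p under 0.05; 3 by DESeq2; 0 by limma-voom), and their median log2 fold change was -0.07. The UDP-glucose dehydrogenase sgl, which makes UDP-glucuronate, was at 170 to 208 CPM for virgin and 154 to 166 CPM for mated midguts. The hexokinase Hex-A was at 130 to 174 CPM and 134 to 193 CPM. Of 7 tested transporters into the secretory pathway, 0 passed (2 with an unadjusted p under 0.05, 0 by DESeq2, 0 by limma-voom). They carry nucleotide sugars, except sll and Papst2, which carry activated sulfate. The highest were Efr and meigo. Efr was at 80.8 to 89.5 CPM in virgin and 66.5 to 77.3 CPM in mated midguts. The levels of meigo were 53.0 to 66.0 CPM and 59.0 to 98.3 CPM, with overlap. The transporter gene frc shares its whole span of 4255 bp with Coq4 on the same strand, and both were listed at 0, so the level of frc is not known here. No Ugt gene overlaps another counted gene on its own strand.

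Of 15 tested ABC transporters of the efflux families, which pump conjugates and drugs out of cells, CG4562 rose and 14 did not pass. In all, 4 had an unadjusted p under 0.05, and DESeq2 and limma-voom each called 1. Beside CG4562 these were Mrp4 and Mdr49, both lower, and CG10505, which was higher. Their log2 fold changes were -0.55 ± 0.15 SE, -0.37 ± 0.15 SE and 0.31 ± 0.14 SE (edgeR adjusted p of 0.074, 0.227 and 0.283). CG4562 had 875, 565 and 877 CPM in virgin 1, 2 and 3 and 2020, 1313 and 1543 CPM in mated 1, 2 and 3. Its groups stood apart (log2 fold change 1.07 ± 0.21 SE, adjusted p = 0.0163), and the call was lost without mated 3 (adjusted p = 0.0554) and without virgin 2 and mated 1 together (adjusted p = 0.0552). The median log2 fold change of the list was 0.12.

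Of 4 tested sulfotransferases and glucuronidases, 0 passed (0 with an unadjusted p under 0.05; 0 by DESeq2; 0 by limma-voom). The highest were St3 and CG15117. St3 was at 79.4 to 101 CPM in virgin and 65.5 to 76.7 CPM in mated midguts. The levels of CG15117 were 50.5 to 75.4 CPM and 68.9 to 82.4 CPM, with overlap. Of 5 tested regulators of detoxification genes 0 passed (3 with an unadjusted p under 0.05; 0 by DESeq2; 0 by limma-voom). The highest were cnc, the fly counterpart of Nrf2, at 314 to 398 CPM for virgin and 356 to 380 CPM for mated midguts, and the nuclear receptor Hr96, at 51.9 to 73.3 CPM and 61.0 to 64.3 CPM. The 3 others, named after their values were seen, did not overlap between groups. Keap1 was higher in mated midguts, at 30.0 to 46.7 CPM and 48.9 to 69.8 CPM (edgeR adjusted p = 0.139). Lower were maf-S, at 49.4 to 60.3 CPM and 36.5 to 42.3 CPM, and tgo, at 22.0 to 24.5 CPM and 13.7 to 18.9 CPM (adjusted p of 0.154 and 0.132).

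Of 6 tested genes of glycoprotein folding, a pathway that also uses UDP-glucose in the endoplasmic reticulum, 0 passed (2 with an unadjusted p under 0.05; 2 by DESeq2; 0 by limma-voom). The median log2 fold change was 0.44. The highest was the chaperone Calr, at 735 to 918 CPM in virgin and 936 to 1330 CPM in mated midguts. Its groups did not overlap (log2 fold change 0.48 ± 0.16 SE, adjusted p = 0.148). Second by the mean over all libraries was CaBP1, at 150 to 408 CPM and 333 to 708 CPM, with overlap (log2 fold change 1.00 ± 0.47 SE, adjusted p = 0.373). The chaperone Cnx99A, next in level, was at 247 to 496 CPM and 342 to 539 CPM, also with overlap. GCS2alpha, named after its values were seen, was at 239 to 335 CPM and 354 to 414 CPM, without overlap (log2 fold change 0.49 ± 0.15 SE, adjusted p = 0.12).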

How the data were processed

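RNA came from TRIzol extraction and a stranded TruSeq mRNA kit, per the labels. The submitters' processing notes name CASAVA 1.8.4, STAR, DESeq2 1.42.0 and dm6 without a role; no source used here names the annotation release. The authors deposited raw counts per gene (unstranded, forward and reverse columns), with 4 summary rows that held 20.9% to 27.0% of reads and were kept out of totals and tests.

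The reverse column was used, since the forward one held 1.86% to 2.32% of counts of either strand. The test was edgeR 4.0.16 (R 4.3.3): filterByExpr, TMM, robust glmQLFit and glmQLFTest, two-sided, Benjamini-Hochberg over all tested genes. Standard errors come from the F statistic. Positions and exon lengths are from Ensembl's annotation in dm6 coordinates, which held all 35 symbols; older names are RefSeq's. Ugt genes at most 30000 bp apart made 1 site. The scripts were tested on simulated counts with the spread of these libraries. Changes were given there only to genes with a virgin mean above 1 CPM, so the rates do not cover lower genes. Of these changes edgeR called 6.43% at 1.5-fold, 53.4% at 2-fold and 90.7% at 4-fold, so small changes can be missed. Of all its calls, 6.77% were unchanged genes.

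No label says that pools were of separate cultures, so the p-values describe the spread of these libraries, which may be technical. Libraries of a group differed beyond counting noise (chi-square over degrees of freedom at least 23.3). The Ugt genes and the pathway and marker lists were chosen with earlier results of these data known. The rule gave values in every library to members that passed or had an unadjusted p under 0.05, the 5 highest per length and any at 0 in 1 group; of pathway lists, to genes that passed or the 2 highest. Alternatives were other scalings and filters, DESeq2 1.42.0, limma-voom (limma 3.58.1), a block for replicate number, the unstranded column, a threshold of 0.01 and libraries left out. Progenitor, enteroendocrine, hindgut, haemocyte and tracheal marker lists had 0, 1, 0, 0 and 0 calls of 4, 8, 2, 1 and 4 tested genes; the call was CCHa2, which was lower. No ovary marker reached the test.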

Additional observations from a re-analysis of the deposited data

How the results depend on the processing

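No Ugt gene was higher under any alternative run. The number lower was 6 in the main analysis, 12 on library size alone, 3 at a threshold of 0.01 and 3 to 5 when 1 library was left out. All alternatives were followed for 14 Ugt genes: 13 with an unadjusted p under 0.05 in edgeR, and Ugt49B1, among the 5 highest per length. Of their values, 205 kept their side of the threshold, 24 lost a call, 9 gained one and 0 changed sign. Genes chosen for a low p seldom change sign, so the last count says little. Among the other members signs did change, as for Ugt35B1 (log2 fold change -0.44, and 0.53 with limma-voom) and Ugt303B1 (-0.11, and 0.16 without virgin 1). Over all genes, 213 were higher and 140 lower. DESeq2 gave 391 and 247, a threshold of 0.01 gave 89 and 45, leaving out virgin 2 and mated 1 together gave 114 and 77, and leaving out 1 library gave 118 to 208 and 51 to 100. Library size alone gave 146 higher and 725 lower. The summed Ugt level then became 2216 CPM in virgin libraries, where it was 2029 CPM, and 1309 CPM in mated libraries, where it was 1426 CPM. The TMM factors were 1.04 to 1.13 in virgin and 0.860 to 0.965 in mated libraries, without overlap. The cause of these shifts was not tested. Depth limits the 9 tested members under 5 CPM.

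With the replicate number as a block, 4 Ugt genes were lower. Ugt302E1 and Ugt35A1 did not pass (edgeR adjusted p of 0.0678 and 0.0533), and over all genes 194 were higher and 96 lower. No sign was seen that the numbers pair the libraries. Same-numbered libraries had correlations of -0.15, -0.05 and -0.03 between their deviations from the group means. The other pairs had -0.06 to 0.10. So few libraries cannot settle whether the numbers stand for pairs.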

Other observations

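Ugt36E1 overlaps the gene CG17597 on the opposite strand by 48 bp. In the forward-strand column, which the comparison did not use, Ugt36E1 had 347, 221 and 208 counts in virgin 1, 2 and 3 and 219, 173 and 216 counts in mated 1, 2 and 3. In the reverse-strand column, which holds its own strand, it had 4, 5 and 0 counts and 16, 10 and 10 counts. CG17597 had a mean of 317 CPM over all libraries, and at this site reads from the 2 genes can be told apart only with the strand.

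Ugt50B3 and Ugt35E2 each had 15 counts in virgin 2 and 0 in virgin 1 and virgin 3. Ugt50B3 also had 12, 3 and 10 counts in mated 1, 2 and 3, where Ugt35E2 had 0.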
